A study of Drosophila melanogaster with 21 samples.

Results

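Genes of phagocytosis, the uptake of microbes and dying cells, were followed across S2 cells that expressed a splicing factor or a mutant of it. The set holds 10 genes: 6 surface receptors (NimC1, eater, crq, drpr, Sr-CI and Dscam1) and 4 secreted or complement-like proteins (Tep2, Tep3, Tep4 and Mcr). They were chosen by symbol out of 13989 annotated genes in the files. S2 cells are a Drosophila melanogaster line derived from embryos, with features of the macrophage-like blood cells called plasmatocytes. Each line carried a copper-inducible gene integrated with hygromycin selection and was treated with 500 µM copper sulfate for 53 h. The induced gene encoded LS2, a fly splicing factor related to the large subunit of U2AF, or GFP in place of LS2. The mutant forms were Beta5 (K192E and R194E), d38 (W62A, D63A and I64A), GSlinker (the stretch from H197 to P233 replaced by glycine-glycine-serine motifs), RRM2 (F285D and F287D) and the SF1 mutant (E370K and D371K), and they were set beside wild-type LS2 (WT) and GFP. All 7 groups share the copper treatment and the selection, each has 3 libraries, and nothing in the labels says whether these came from separate cultures, so p-values measure the spread between these libraries only. The comparisons ask what each change to LS2 does to the RNA of the cells.

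Fly blood cells take up bacteria and apoptotic cells through receptors with few features in common. NimC1, eater and drpr carry EGF-like repeats, crq belongs to the CD36 family, Sr-CI is a class C scavenger receptor, and Dscam1 is an immunoglobulin-superfamily receptor made in a very large number of forms by alternative splicing. The Tep proteins are relatives of complement factors with a thioester motif and are thought to coat microbes for uptake, while Mcr is a related protein without that motif that is also needed at septate junctions.

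LS2 was at 5175 to 8216 TPM (a transcript level corrected for length and depth) in the 18 LS2 libraries and at 1.46 to 3.97 TPM in GFP. Estimated counts summed to 17667236 to 38553848 per library. The gap between a transcript's length and its effective length split the libraries into 2 sets. Its SD ran from 278 to 379 nt in the SF1 mutant, Beta5 and GSlinker and from 68.4 to 88.6 nt in d38, RRM2, WT and GFP. Where a construct of the first set is compared with WT or GFP, set and construct cannot be told apart, and with 1 line per construct neither can line and construct. All 10 plasmatocyte markers (2 of them, Sr-CI and crq, are among the genes described here) were above 1 TPM in every library, 2 to 4 of 4 lamellocyte markers and 1 of 4 neuronal markers passed 1 TPM, and 0 of 4 fat body and 0 of 4 muscle markers did. The plasmatocyte markers summed to 736 to 868 TPM in WT, 882 to 939 TPM in d38, 948 to 995 TPM in Beta5 and 1073 to 1427 TPM in GSlinker, RRM2 and the SF1 mutant, against 1612 to 1702 TPM in GFP, with Col4a1, vkg and Pxn all lower in every LS2 library than in GFP. The other plasmatocyte markers did not all move this way. For srp every library of Beta5, d38, GSlinker and the SF1 mutant lay above those of GFP (97.5 to 101 TPM). WT and RRM2 overlapped GFP in srp. The 2 germline markers in the files summed to 48.7 to 60.8 TPM in the LS2 libraries and 32.3 to 36.1 TPM in GFP, carried by aub. The crystal cell markers summed to 4.70 to 13.3 TPM in the LS2 libraries and to 59.95 to 65.8 TPM in GFP, carried by PPO1 and PPO2. The part of these marker differences in the differences from GFP below was not tested. In bulk RNA, fewer cells of a type and less RNA per cell cannot be told apart.

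All but NimC1 and Tep3 averaged at least 11.7 TPM. Over all 21 libraries Tep4 averaged 190.2 TPM, crq 111 TPM, Tep2 108 TPM, eater 61.1 TPM, Dscam1 53.0 TPM, drpr 48.9 TPM, Mcr 16.9 TPM and Sr-CI 11.7 TPM. These levels put Tep4 at percentile 92.9 of the 8750 genes tested, Mcr at percentile 45.4 and Sr-CI at percentile 37.0. NimC1, the founding Nimrod receptor for bacteria, was read by only 1 to 8 estimated counts per library and did not pass the filter on low counts, so 9 of the 10 genes were tested. Tep3 was read by 2 to 18 counts per library and passed the filter through the LS2 libraries, where its counts are higher.

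Differences in gene level were tested with edgeR on counts, and a gene is said to rise or fall where its adjusted p was under 0.05. Against GFP, 7 of the 9 tested genes passed in WT (3 higher and 4 lower), where 34.2% of all genes passed. In Beta5 4 of 9 passed, all higher, beside 57.3% of all genes. In d38 5 passed (2 higher and 3 lower), beside 30.3%. In GSlinker 7 passed (6 higher and 1 lower), beside 63.7%. In RRM2 5 passed (4 higher and 1 lower), beside 24.9%, while the SF1 mutant had 5 (3 higher and 2 lower), beside 58.5%. The median log2 fold change of the 9 genes was 0.39 in GSlinker, 0.18 in Beta5, 0.17 in RRM2, 0.07 in the SF1 mutant, 0.03 in d38 and −0.03 in WT, against medians between −0.01 and 0.00 over all genes. Without Tep3 the count was 3 of 8 in Beta5, 4 each for d38, RRM2 and the SF1 mutant and 6 each for GSlinker and WT, and the medians ran from −0.10 in WT to 0.37 in GSlinker. These 6 comparisons use the same GFP libraries.

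Against WT, 6 of the 9 genes passed in Beta5 (4 higher and 2 lower), where 54% of all genes passed. In d38 5 passed (2 higher and 3 lower), beside 16.3%. In GSlinker 5 passed (3 higher and 2 lower), beside 58.1%. In RRM2 5 passed (3 higher and 2 lower), beside 8.11% of all genes, while the SF1 mutant had 4 (2 higher and 2 lower), beside 49.2%. Between mutants of the same library set, d38 differed from RRM2 in 3 genes, all lower in d38, beside 13.6% of all genes. Beta5 differed from GSlinker in 6 genes (2 higher and 4 lower), beside 16.9%, and from the SF1 mutant in 3 genes (2 higher and 1 lower), beside 20.5%. In a fit of that library set alone Beta5 differed from GSlinker in 0 of these genes. Over all genes that fit called 575, against 1482 with all libraries. GSlinker differed from the SF1 mutant in 5 genes (4 higher and 1 lower), beside 27.8%.

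**Figure D1:**
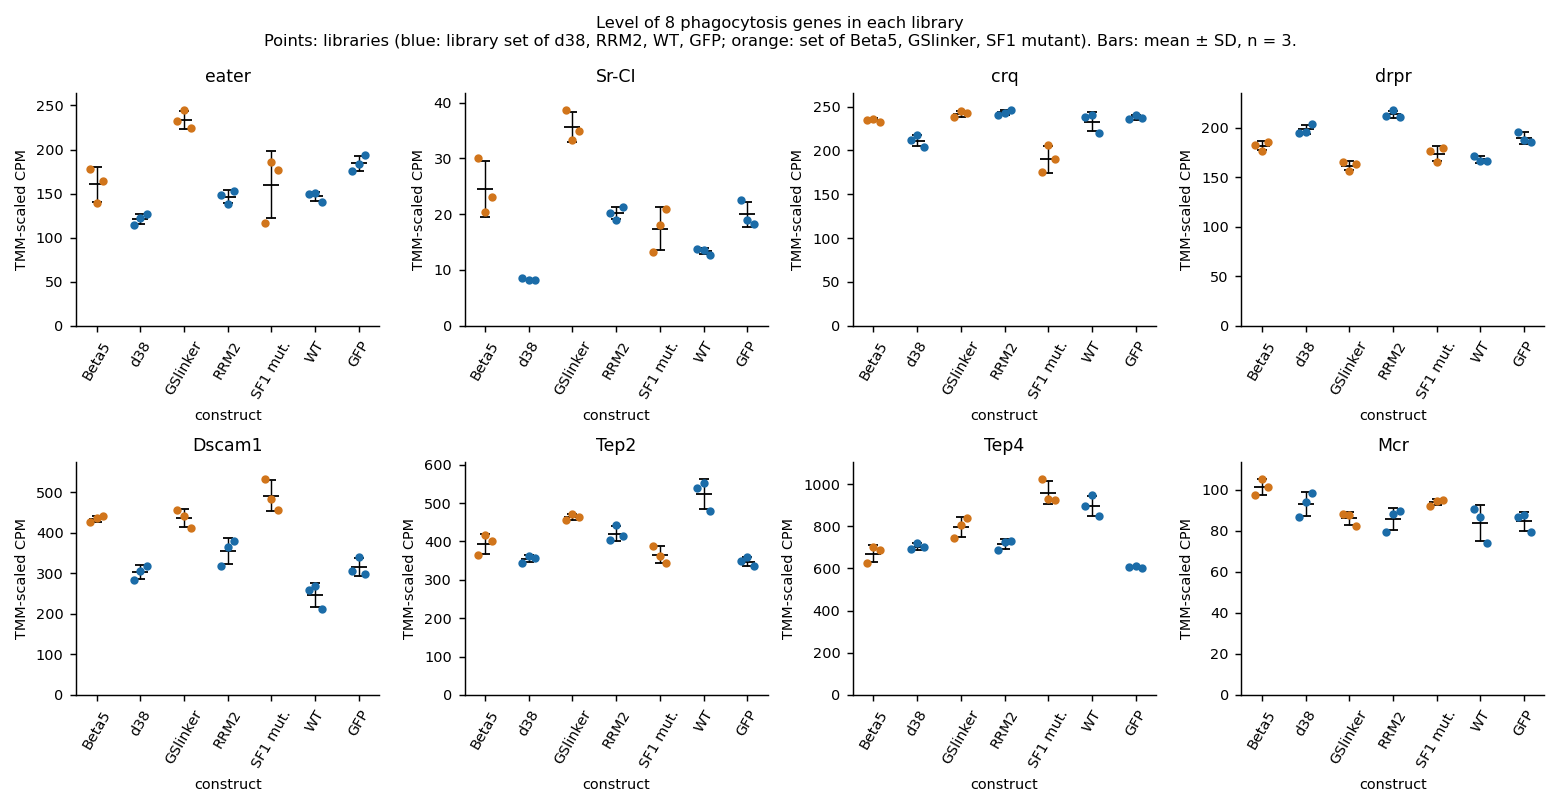
TMM-scaled CPM (y axis, from 0) of 8 genes in each library, by construct (x axis), points for libraries and bars for mean ± SD (n = 3), colours for the 2 library sets. Sr-CI is lowest in d38 (8.20 to 8.47 CPM) and highest in GSlinker (33.4 to 38.7 CPM), Tep2 is highest in WT, and Tep4 is lowest in GFP.

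The scavenger receptor Sr-CI (FBgn0014033, chromosome 2L, 4121702 to 4124153, plus strand), which binds bacteria and in S2 cells takes part in their uptake, had the widest fold range of the genes apart from NimC1 and Tep3. It stood at 30.1, 20.3 and 23.0 CPM (counts scaled to library size, with TMM factors between libraries) in Beta5, at 8.47, 8.20 and 8.24 CPM in d38, and at 38.7, 33.4 and 35.0 CPM in GSlinker. RRM2 had 20.3, 19.0 and 21.2 CPM and the SF1 mutant 13.2, 17.98 and 20.8 CPM, against 13.8, 13.5 and 12.8 CPM in WT and 22.5, 19.0 and 18.3 CPM in GFP. The d38 libraries lay below all others and the GSlinker libraries above all others. Sr-CI fell in d38 against GFP, by 1.26 on the log2 scale (SE 0.14, edgeR adjusted p = 8.85e-07), and in WT against GFP, by 0.58 (SE 0.14, edgeR adjusted p = 0.00257). In GSlinker it rose by 0.84 (SE 0.13, edgeR adjusted p = 2.21e-05). The log2 fold changes against GFP of 0.29 in Beta5, 0.02 in RRM2 and −0.21 in the SF1 mutant did not pass in edgeR. The first passed without Beta5 replicate 2 or GFP replicate 1, by DESeq2 (adjusted p = 0.0457), with no filter on low counts, with effective-length offsets (0.40) and on log2(TPM + 1) (0.46, limma adjusted p = 0.00667).

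Set against WT, all 5 mutants differed in Sr-CI. It was lower in d38, with a log2 fold change of −0.68 (SE 0.15, edgeR adjusted p = 0.00285), and higher in GSlinker at 1.42 (SE 0.14, edgeR adjusted p = 2.26e-07), Beta5 at 0.87 (SE 0.14), RRM2 at 0.60 (SE 0.14) and the SF1 mutant at 0.36 (SE 0.14, edgeR adjusted p = 0.0361). The last call was lost without SF1 mutant replicate 2 or 3 or WT replicate 2 or 3 (adjusted p up to 0.240) and from the 2 groups alone (edgeR adjusted p = 0.0908). Within a library set, d38 was below RRM2 at −1.28 (SE 0.14, edgeR adjusted p = 2.97e-06) and GSlinker above the SF1 mutant at 1.05 (SE 0.14, edgeR adjusted p = 1.04e-05). Beta5 was below GSlinker at −0.54 (edgeR adjusted p = 0.00772), a call lost without Beta5 replicate 2 (adjusted p = 0.0585). Beta5 was above the SF1 mutant at 0.51 (edgeR adjusted p = 0.0108), a call lost without Beta5 replicate 1 or SF1 mutant replicate 1 (adjusted p up to 0.0917). Neither Beta5 call passed in a fit of that library set alone (edgeR adjusted p = 0.0837 against GSlinker and 0.0997 against the SF1 mutant).

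The EGF-repeat receptor eater (FBgn0243514, chromosome 3R, 27095867 to 27099679, minus strand), a receptor for bacteria on plasmatocytes, had 114, 122 and 127 CPM in d38 and 233, 245 and 224 CPM in GSlinker, against 149.5, 150.2 and 141 CPM in WT and 176, 183 and 193 CPM in GFP. Here too d38 was lowest by mean and GSlinker highest, and neither overlapped GFP. The gene fell in d38 against GFP by 0.61 on the log2 scale (SE 0.12, edgeR adjusted p = 5.55e-04) and rose in GSlinker by 0.35 (SE 0.12, edgeR adjusted p = 0.0151). The second call was lost without GSlinker replicate 2 (adjusted p = 0.0559). GSlinker was also above WT at 0.67 (SE 0.12, edgeR adjusted p = 8.62e-05), above the SF1 mutant at 0.55 (edgeR adjusted p = 0.00188) and above Beta5, where Beta5 over GSlinker was −0.54 (edgeR adjusted p = 0.00326). The Beta5 difference from GSlinker did not pass in a fit of their library set alone (edgeR adjusted p = 0.0602). GSlinker over the SF1 mutant did not pass from the 2 groups alone (edgeR adjusted p = 0.0697). The smaller falls against GFP, −0.33 in WT (edgeR adjusted p = 0.0374) and −0.33 in RRM2 (edgeR adjusted p = 0.0463), rested on single libraries. The WT call was lost without any 1 of WT replicates 1, 2 and 3 and GFP replicates 2 and 3 (adjusted p up to 0.109), and the RRM2 call without any 1 of its 6 libraries (adjusted p up to 0.143). Beta5 with 178, 139 and 165 CPM and the SF1 mutant with 116, 186 and 177 CPM overlapped GFP and did not pass over all libraries, though without its first library the SF1 mutant passed as higher than WT and without its second as lower than GFP. On log2(TPM + 1) eater passed as higher against WT in Beta5 (0.32, limma adjusted p = 0.0279) and the SF1 mutant (0.41, limma adjusted p = 0.00746). In d38 against WT eater stood at −0.28, which passed in the fit of that library set alone (edgeR adjusted p = 0.00170) and not over all libraries (0.119).

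The CD36-family receptor crq (FBgn0015924, chromosome 2L, 448254 to 453024, minus strand), which is needed for clearance of apoptotic cells, ran from 204 to 246 CPM in all groups except the SF1 mutant, which had 175, 206 and 189.7 CPM. In the SF1 mutant crq fell by 0.32 on the log2 scale against GFP (SE 0.05, edgeR adjusted p = 4.11e-05) and by 0.29 against WT (SE 0.05, edgeR adjusted p = 2.32e-04). From the 2 groups alone the call against WT was lost (edgeR adjusted p = 0.0515). On log2(TPM + 1) with limma the differences from GFP and from WT were −0.12 (adjusted p = 0.0946) and 0.01 (adjusted p = 0.865), so neither passed and the second lay near 0. The median of all genes moved by 0.17 and 0.18 in these comparisons on that scale. On that scale crq passed as higher in GSlinker against GFP (0.22, limma adjusted p = 0.00430) and, against WT, in GSlinker (0.36, limma adjusted p = 7.96e-05) and Beta5 (0.25, limma adjusted p = 0.00248). With effective-length offsets GSlinker against WT passed too, at 0.15 (edgeR adjusted p = 0.0113). Within its library set, crq was higher than in the SF1 mutant in both Beta5, at 0.30 (edgeR adjusted p = 2.97e-04), and GSlinker, at 0.35 (edgeR adjusted p = 8.38e-05). The Beta5 call was lost from the 2 groups alone (edgeR adjusted p = 0.0605). In d38 crq was lower than in RRM2, at −0.20 (edgeR adjusted p = 0.0128), a call lost without d38 replicate 3 (adjusted p = 0.0738). The fall in d38 against GFP, −0.17 (edgeR adjusted p = 0.0200), was lost without d38 replicate 3 or GFP replicate 1 or 3 (adjusted p up to 0.0911), and on log2(TPM + 1) (adjusted p = 0.222). Reads of crq may be shared with the overlapping gene ex.

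Draper, encoded by drpr (FBgn0027594, chromosome 3L, 1715595 to 1731107, minus strand), recognises apoptotic cells and neuronal debris. Its counts stood at 195, 196 and 204 CPM in d38 and 212, 218 and 211 CPM in RRM2, against 172, 166 and 166 CPM in WT and 196, 187 and 185 CPM in GFP. The RRM2 libraries lay above all libraries of WT and GFP. The gene rose against WT in RRM2, by 0.35 on the log2 scale (SE 0.05, edgeR adjusted p = 5.01e-05), and in d38, by 0.24 (SE 0.05, edgeR adjusted p = 0.00127). Against GFP it fell in WT, at −0.17 (edgeR adjusted p = 0.00647), a call lost without GFP replicate 1 (adjusted p = 0.0511), and rose in RRM2, at 0.17 (edgeR adjusted p = 0.0102), a call lost without RRM2 replicate 2 or GFP replicate 2 (adjusted p up to 0.0711). GSlinker had 165, 156 and 164 CPM and the SF1 mutant 177, 166 and 179 CPM, and both passed as lower than GFP on counts, at −0.23 (edgeR adjusted p = 2.84e-04) and −0.12 (edgeR adjusted p = 0.0284). The SF1 mutant call was lost without SF1 mutant replicate 2 or GFP replicate 1 or 3 (adjusted p up to 0.160). In TPM the signs turned, to 0.02 (limma adjusted p = 0.813) in GSlinker and 0.13 (limma adjusted p = 0.0655) in the SF1 mutant, so no direction is given for drpr in these comparisons. In GSlinker against WT the sign turned as well, with −0.06 on counts (not called) and 0.20 on log2(TPM + 1) (limma adjusted p = 0.00996). On that scale drpr also passed as higher in d38 against GFP (0.24, limma adjusted p = 0.00575) and in the SF1 mutant against WT (0.31, limma adjusted p = 3.18e-04). Beta5 exceeded WT by 0.11 (edgeR adjusted p = 0.0477), a call lost without Beta5 replicate 1 or 3 or WT replicate 2 or 3 (adjusted p up to 0.148). Beta5 also exceeded GSlinker by 0.17 (edgeR adjusted p = 0.0176), a call lost without Beta5 replicate 3 or GSlinker replicate 2 (adjusted p up to 0.0896) and on log2(TPM + 1) (adjusted p = 0.375). The same call was lost in a fit of their library set alone (edgeR adjusted p = 0.171).

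Dscam1 (FBgn0033159, chromosome 2R, 7317924 to 7381899, minus strand), best known for self-recognition between neurites and also made by blood cells, was lowest where wild-type LS2 was expressed. WT had 259, 267 and 211 CPM, against 306, 341 and 298 CPM in GFP, and the fall of 0.36 on the log2 scale passed (SE 0.09, edgeR adjusted p = 0.00293). The SF1 mutant had 532, 484 and 457 CPM, Beta5 426, 436 and 441 CPM and GSlinker 455, 441 and 413 CPM, and the 9 libraries of these 3 mutants lay above all others. Against GFP the gene rose by 0.64 in the SF1 mutant (SE 0.09, edgeR adjusted p = 3.73e-06), by 0.47 in GSlinker (SE 0.09, edgeR adjusted p = 9.70e-05) and by 0.46 in Beta5 (SE 0.09, edgeR adjusted p = 1.51e-04). These 3 mutants form 1 library set. In d38 with 284, 307 and 318 CPM and in RRM2 with 319, 365 and 380.0 CPM the log2 fold changes against GFP were −0.06 and 0.17 and did not pass.

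Relative to WT, Dscam1 was higher in all 5 mutants. The log2 fold change was 0.53 in RRM2 (SE 0.09, edgeR adjusted p = 3.80e-04) and 0.30 in d38 (SE 0.09, edgeR adjusted p = 0.0201), both within the library set of WT, and 0.997 in the SF1 mutant, 0.83 in GSlinker and 0.82 in Beta5 (edgeR adjusted p between 6.53e-08 and 5.44e-07). The d38 call was lost without d38 replicate 2 or 3 or WT replicate 3 (adjusted p up to 0.150). None of the 4 comparisons between mutants of a set passed for Dscam1.

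**Figure D2:**
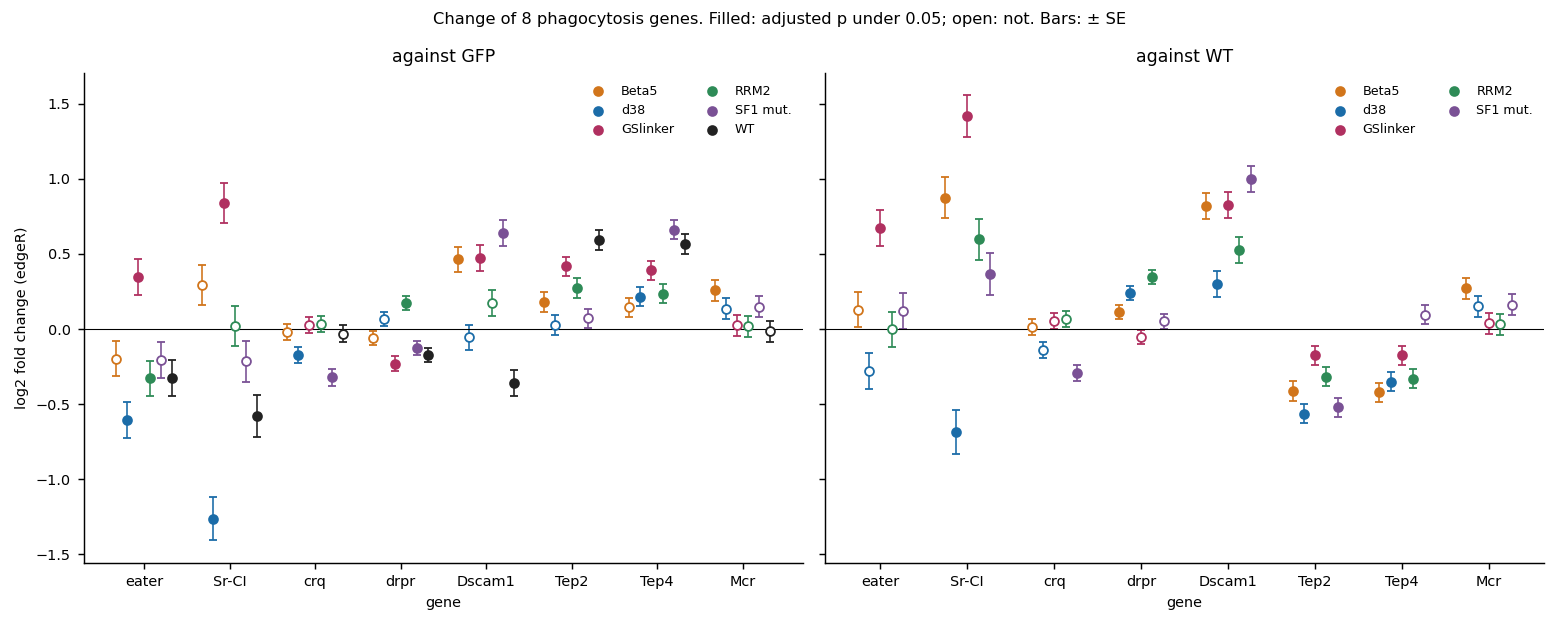
Log2 fold change (y axis) of 8 genes (x axis) in each LS2 construct against GFP (left) and in each mutant against WT (right), from edgeR; bars are ± 1 SE, filled points have an adjusted p under 0.05 and open points do not. Sr-CI spans −1.26 to 0.84 against GFP, Tep2 lies below 0 against WT in all 5 mutants on these counts (GSlinker lies at 0.04 in TPM), and Dscam1 lies above 0 against WT in all 5 mutants.

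Among the secreted proteins, Tep4 (FBgn0041180, chromosome 2L, 19548507 to 19556451, plus strand) was the most abundant of the 10 genes. Beta5 had 624, 701 and 685 CPM, d38 690.2, 720.5 and 700.3 CPM, GSlinker 743, 805 and 838 CPM and RRM2 687, 724 and 731 CPM. The SF1 mutant had 1023, 928 and 926 CPM and WT 897, 946 and 850.0 CPM, against 606, 613 and 599.7 CPM in GFP. All 18 LS2 libraries lay above the 3 GFP libraries, and the SF1 mutant and WT were highest. Against GFP it rose by 0.66 in the SF1 mutant (SE 0.06, edgeR adjusted p = 4.43e-08), 0.57 in WT (SE 0.06, edgeR adjusted p = 6.57e-07) and 0.39 in GSlinker (SE 0.06, edgeR adjusted p = 2.99e-05). Smaller rises were called in RRM2 (0.24, edgeR adjusted p = 0.0102), lost without RRM2 replicate 2 (adjusted p = 0.0557), and in d38 (0.21, edgeR adjusted p = 0.0147), lost without d38 replicate 2 or GFP replicate 1 or 3 (adjusted p up to 0.0627). Beta5, at 0.14, did not pass (edgeR adjusted p = 0.0611), though it passed without Beta5 replicate 1, by DESeq2 (adjusted p = 0.0174), with RLE factors and on log2(TPM + 1) (0.22, limma adjusted p = 0.0146).

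Tep4 was lower than WT in the mutants other than SF1. The log2 fold change was −0.42 in Beta5 (SE 0.06, edgeR adjusted p = 2.64e-05), −0.35 in d38 (SE 0.06, edgeR adjusted p = 6.71e-04) and −0.33 in RRM2 (SE 0.06, edgeR adjusted p = 0.00182). The d38 difference was −0.18 on log2(TPM + 1) and did not pass there (limma adjusted p = 0.0595). In GSlinker it was −0.17 (edgeR adjusted p = 0.0242), a call lost without GSlinker replicate 1 or WT replicate 1 or 2 (adjusted p up to 0.183) and on log2(TPM + 1) (adjusted p = 0.760). In the SF1 mutant it was 0.10 and did not pass, but stood at 0.29 on log2(TPM + 1), which passed as higher (limma adjusted p = 0.00240). Within that library set, Tep4 was lower than in the SF1 mutant in both Beta5, at −0.52 (SE 0.06, edgeR adjusted p = 4.43e-06), and GSlinker, at −0.27 (edgeR adjusted p = 0.00405). The GSlinker call was lost in a fit of that library set alone (edgeR adjusted p = 0.0616) and from the 2 groups alone (edgeR adjusted p = 0.141). Beta5 was also lower than GSlinker, at −0.25 (edgeR adjusted p = 0.0114), a call lost without Beta5 replicate 1 (adjusted p = 0.0517) and in the fit of that library set alone (adjusted p = 0.107).

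Tep2 (FBgn0041182, chromosome 2L, 7693727 to 7701601, minus strand) peaked in WT on counts. Beta5 had 364, 417 and 400.2 CPM, d38 344, 362 and 357 CPM, GSlinker 456, 472 and 463 CPM, RRM2 405, 443 and 414 CPM and the SF1 mutant 388, 363 and 344 CPM, against 538, 553 and 480.4 CPM in WT and 349, 358 and 335 CPM in GFP. In CPM the 3 WT libraries lay above all 18 others. In TPM they did not, with 110 to 139 TPM in WT and 124 to 132 TPM in GSlinker. Against GFP it rose by 0.59 in WT (SE 0.06, edgeR adjusted p = 3.96e-07), 0.42 in GSlinker (SE 0.06, edgeR adjusted p = 1.69e-05) and 0.27 in RRM2 (SE 0.06, edgeR adjusted p = 0.00370). The rise of 0.18 in Beta5 (edgeR adjusted p = 0.0225) was lost without Beta5 replicate 2 or 3 or GFP replicate 3 (adjusted p up to 0.111). In d38 and the SF1 mutant the values were 0.03 and 0.07 and did not pass, but on log2(TPM + 1) the SF1 mutant stood at 0.31 and passed (limma adjusted p = 0.00305).

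Every mutant passed as below WT for Tep2 on counts, though GSlinker and RRM2 did not pass in TPM. The log2 fold change was −0.56 in d38 (SE 0.06, edgeR adjusted p = 4.05e-06), −0.52 in the SF1 mutant (SE 0.06, edgeR adjusted p = 4.98e-06), −0.41 in Beta5 (SE 0.06, edgeR adjusted p = 3.73e-05) and −0.32 in RRM2 (SE 0.06, edgeR adjusted p = 0.00288). RRM2 stood at −0.22 on log2(TPM + 1), which did not pass (limma adjusted p = 0.0973). GSlinker, at −0.18 (edgeR adjusted p = 0.0250), had its call lost without GSlinker replicate 1 or 3 or WT replicate 1 or 2 (adjusted p up to 0.189) and stood at 0.04 on log2(TPM + 1) (limma adjusted p = 0.681). Among mutants, d38 was below RRM2 at −0.25 (edgeR adjusted p = 0.0130), a call lost without d38 replicate 1 or RRM2 replicate 2 (adjusted p up to 0.0961) and on log2(TPM + 1) (adjusted p = 0.186), and GSlinker was above the SF1 mutant at 0.35 (edgeR adjusted p = 5.56e-04). Beta5 was below GSlinker at −0.24 (edgeR adjusted p = 0.0158), a call lost without Beta5 replicate 1 or GSlinker replicate 2 (adjusted p up to 0.0697) and in a fit of their library set alone (adjusted p = 0.0898).

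Tep3 (FBgn0041181, chromosome 2L, 7702805 to 7710690, plus strand) was barely read. Beta5 had 8, 11 and 8 counts, d38 6, 14 and 9, GSlinker 5, 15 and 12, RRM2 13, 7 and 10, the SF1 mutant 18, 14 and 5 and WT 6, 12 and 9, against 3, 2 and 2 in GFP. Every LS2 library had more counts than every GFP library. Pooled over 3 libraries and scaled to depth, the ratio to GFP ran from 3.53 in WT (95% exact interval 1.49998 to 9.60) to 6.51 in GSlinker (2.82 to 17.5), with intervals that cover counting error only. All 6 comparisons with GFP were called on counts (edgeR adjusted p between 2.21e-04 and 0.0171). Since Tep3 entered the test through the LS2 libraries, these calls are not independent of the filter, though with no filter they were also called (adjusted p between 2.74e-04 and 0.0249). The WT call was lost without WT replicate 2 or GFP replicate 2 (adjusted p up to 0.0856), the d38 call without d38 replicate 2 (0.0559) and the RRM2 call without GFP replicate 2 (0.0538). On log2(TPM + 1) GSlinker and the SF1 mutant passed, and WT, Beta5, d38 and RRM2 did not (limma adjusted p between 0.0989 and 0.355). For NimC1 the pooled counts were 22 for d38, 16 for Beta5, 15 for the SF1 mutant, 14 for RRM2, 11 for GSlinker and 5 for WT, against 11 for GFP, and all 6 exact intervals of the ratio to GFP included 1. Set against WT, the ratio ran from 2.97 in RRM2 (95% exact interval 1.01 to 10.5) to 4.99 in d38 (1.84 to 16.9), and the intervals of all 5 mutants lay above 1. The libraries of Beta5, d38 and the SF1 mutant lay above those of WT, while RRM2 and GSlinker overlapped it in CPM. NimC1 was not tested over replicates.

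Mcr (FBgn0267488, chromosome 2L, 8074117 to 8082982, minus strand) moved least among the opsonin-like genes. Its libraries ran from 73.9 to 105 CPM in all groups. In the edgeR fit Beta5, with 97.2, 105 and 101 CPM, passed against GFP, which had 86.7, 87.8 and 79.2 CPM, at a log2 fold change of 0.26 (SE 0.07, edgeR adjusted p = 0.00394), and against WT, which had 90.7, 86.8 and 73.9 CPM, at 0.27 (SE 0.07, edgeR adjusted p = 0.00295). No other LS2 form passed in that fit. Beta5 over GSlinker was 0.23 (edgeR adjusted p = 0.0287), a call lost without Beta5 replicate 2 or 3 or any 1 GSlinker replicate (adjusted p up to 0.118) and in a fit of their library set alone (adjusted p = 0.0556). On log2(TPM + 1) Mcr also passed as higher against GFP in d38 (0.28, limma adjusted p = 0.0300), GSlinker (0.25, limma adjusted p = 0.0305) and the SF1 mutant (0.42, limma adjusted p = 0.00109), and against WT in d38 (0.31, limma adjusted p = 0.0217), GSlinker (0.28, limma adjusted p = 0.0193) and the SF1 mutant (0.45, limma adjusted p = 7.61e-04). The SF1 mutant against WT, at 0.16 in edgeR with TMM (adjusted p = 0.0595), passed by DESeq2 (adjusted p = 0.0399), with RLE factors (0.0442) and with effective-length offsets (0.0187). Tep2, Tep3, Mcr and Dscam1 each overlap a gene on the other strand, and drpr overlaps CG18171 and Oseg4 on its own strand and CG12035 on the other, so reads may be shared. Neither the labels nor the headers say whether counting used strand.

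The scale matters for the smaller differences. On log2(TPM + 1) the median of all genes moved by over 0.1 in 6 of the 15 comparisons, by 0.17 in the SF1 mutant and 0.12 in d38 and GSlinker against GFP and by 0.18 in the SF1 mutant, 0.14 in d38 and 0.13 in GSlinker against WT. The drpr values that turned sign stood beside these medians at 0.02 beside 0.12 in GSlinker against GFP, 0.13 beside 0.17 in the SF1 mutant against GFP and 0.20 beside 0.13 in GSlinker against WT. Likewise crq stood at 0.01 beside 0.18 in the SF1 mutant against WT, and Tep2 at 0.04 beside 0.13 in GSlinker against WT.

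Isoform usage was tested as each transcript's share of its gene's TPM with limma, in the 6 genes with 2 or more tested transcripts (crq, drpr, Sr-CI, Dscam1, Tep2 and Tep4). Against GFP, 3 of the 6 were called in WT (drpr, Sr-CI and Tep2), where 17.1% of 4499 genes were called. Beta5 had 3 (Sr-CI, Dscam1 and Tep2) beside 34.3%, d38 had 1 (Sr-CI) beside 13.6%, and GSlinker had all 6 beside 43.6%. RRM2 had 3 (Sr-CI, Dscam1 and Tep2) beside 14.4%, and the SF1 mutant had 4 (crq, Sr-CI, Dscam1 and Tep2) beside 38.1%. Against WT, Beta5 had 4 (drpr, Sr-CI, Dscam1 and Tep2) beside 28.9%, d38 had 2 (drpr and Tep2) beside 8.16%, and GSlinker had 4 (drpr, Sr-CI, Dscam1 and Tep2) beside 35.5%. RRM2 had 1 (drpr) beside 2.02%, and the SF1 mutant had 5 (all but Tep4) beside 25.1%.

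Tep2 showed the clearest isoform pattern. Its 5 annotated transcripts differ in which 1 of 5 mutually exclusive exons they carry, in the order RD, RF, RG, RB and RA along the transcript, and these exons code for the variable central region of the protein. Tep2-RF and Tep2-RG are also annotated with a 3′ end 85 nt longer than that of the other 3, so their shares do not rest on the alternative exon alone. The exon of Tep2-RB (151 nt, chromosome 2L, 7697007 to 7697157) was present in 50.001%, 51.3% and 49.2% of Tep2 TPM in Beta5, in 29.2%, 27.5% and 28.9% in d38, and in 60.7%, 59.0% and 62.8% in GSlinker. It made up 45.8%, 44.7% and 44.8% in RRM2 and 40.7%, 42.2% and 42.5% in the SF1 mutant, against 44.7%, 50.9% and 45.5% in WT and 29.7%, 31.6% and 30.0% in GFP. The d38 libraries lay just below those of GFP, and the libraries of all other LS2 forms lay above them. The share rose against GFP by 16.7 percentage points in WT (limma adjusted p = 1.43e-05), 30.4 in GSlinker (limma adjusted p = 1.93e-08), 19.7 in Beta5 (limma adjusted p = 2.48e-06), 14.7 in RRM2 (limma adjusted p = 7.66e-05) and 11.4 in the SF1 mutant (limma adjusted p = 1.67e-04). In d38 the difference was −1.86 points and did not pass (limma adjusted p = 0.564). Against WT it was −18.5 points in d38 (limma adjusted p = 1.28e-05) and 13.8 points in GSlinker (limma adjusted p = 8.69e-05), while Beta5 (3.08 points), RRM2 (−1.96 points) and the SF1 mutant (−5.25 points) did not pass.

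The other exons of Tep2 moved too. In WT the exon of Tep2-RF fell to 6.004% ± 0.371, against 13.4% ± 2.4 in GFP, and that of Tep2-RD to 5.28% ± 0.51, against 9.20% ± 0.42 in GFP (SD, n = 3 each), while Tep2-RG stood at 35.5% ± 3.0 in WT and 37.6% ± 1.4 in GFP and did not pass. In GSlinker the exon of Tep2-RG, next to that of Tep2-RB, fell to 18.9% ± 1.9, and in Beta5 to 24.9% ± 1.5 (SD, n = 3 each). In d38 Tep2-RD stood at 12.04% ± 0.82 and Tep2-RA at 13.8% ± 2.1, against 5.28% ± 0.51 and 6.14% ± 1.13 in WT (SD, n = 3 each), and both shares rose (limma adjusted p = 2.63e-04 and 0.00355). At gene level, the Tep2 calls against GFP in WT, Beta5, GSlinker, RRM2 and the SF1 mutant kept passing with any 1 library left out. From the 2 groups alone the SF1 mutant call was lost (limma adjusted p = 0.0661). By edgeR's isoform F test d38 also differed from GFP in Tep2 (adjusted p = 0.0168), where limma gave 0.172.

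**Figure D3:**
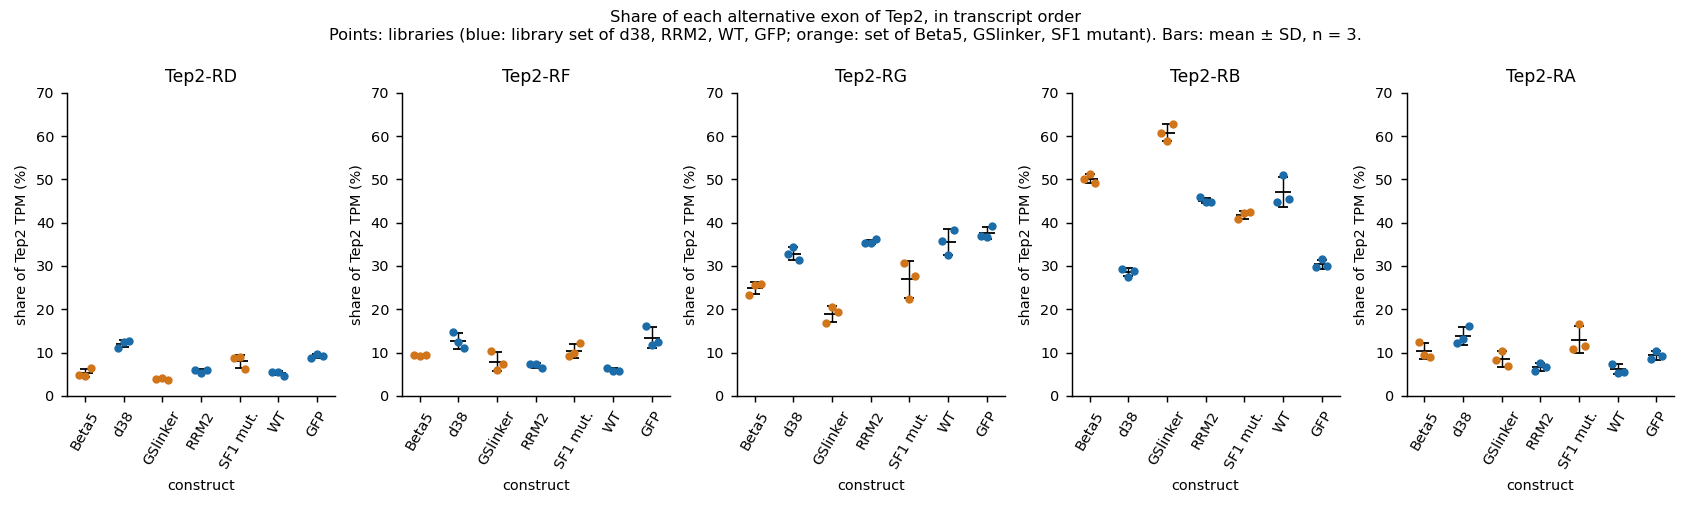
Share of Tep2 TPM in percent (y axis, 0 to 70) of the 5 transcripts, each with its own alternative exon, by construct (x axis); points are libraries and bars mean ± SD (n = 3). Tep2-RB runs from 27.5% to 29.2% in d38, from 59.0% to 62.8% in GSlinker and from 29.7% to 31.6% in GFP.

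Sr-CI has 2 transcripts with 1 coding sequence, and Sr-CI-RB runs 147 nt further at the 3′ end. The longer form made up 16.7%, 29.2% and 13.8% of Sr-CI TPM in Beta5, 20.3%, 63.1% and 53.9% in d38 and 5.69%, 8.65% and 6.49% in GSlinker. It made up 43.3%, 45.9% and 27.0% in RRM2 and 21.6%, 29.6% and 16.5% in the SF1 mutant, against 67.3%, 73.7% and 39.9% in WT and 94.2%, 85.7% and 88.1% in GFP. The GFP libraries lay above all LS2 libraries and the GSlinker libraries below all others, and d38 and WT varied widely within the group. The share fell against GFP in all 6 LS2 groups, by 82.4 points in GSlinker, 69.4 in Beta5, 66.8 in the SF1 mutant, 50.6 in RRM2, 43.6 in d38 and 29.0 in WT (limma gene-level adjusted p between 2.21e-06 and 0.0183). The WT call was lost without WT replicate 3 (adjusted p = 0.0983) or GFP replicate 1 (adjusted p = 0.0911), and in a fit over the 12 libraries of that set (adjusted p = 0.0554). From the 2 groups alone the WT call (limma adjusted p = 0.0828) and the d38 call (limma adjusted p = 0.0642) were lost. Against WT it was lower in GSlinker by 53.4 points (limma adjusted p = 2.00e-04), Beta5 by 40.4 points (limma adjusted p = 0.00671) and the SF1 mutant by 37.7 points (limma adjusted p = 0.0148). The last call was lost without SF1 mutant replicate 3 or WT replicate 1 or 2 (adjusted p up to 0.0667) and from the 2 groups alone (limma adjusted p = 0.0822). In d38 (−14.5 points, limma adjusted p = 0.471) and RRM2 (−21.5 points, limma adjusted p = 0.431) the share overlapped WT and did not pass. These 2 mutants are in the library set of WT, and the mutants that passed form the other set, so set and construct cannot be told apart. These shares rest on 41 to 556 estimated counts of Sr-CI-RB per library, and the assignment of reads between forms that differ only at the end is an estimate.

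For crq, the 2 main transcripts also share their coding sequence, and crq-RD is shorter than crq-RA by 462 nt at the 3′ end and 272 nt at the 5′ end. Beta5 had 8.50%, 23.1% and 27.8% crq-RD, d38 24.5%, 25.8% and 22.3%, GSlinker 10.4%, 17.4% and 27.0% and RRM2 30.2%, 28.9% and 30.1%. The SF1 mutant had 15.8%, 0% as listed and 2.25%, against 16.9%, 32.2% and 30.7% in WT and 51.1%, 47.1% and 44.7% in GFP. All 18 LS2 libraries lay below all GFP libraries. At gene level the SF1 mutant passed against GFP (limma adjusted p = 6.32e-04) and against WT (limma adjusted p = 0.0206), the second call being lost without SF1 mutant replicate 2 or 3 or WT replicate 2 or 3 (adjusted p up to 0.109). From the 2 groups alone both calls were lost (limma adjusted p = 0.0634 and 0.202). WT (adjusted p = 0.341) and d38 (adjusted p = 0.366) did not pass against GFP over all 21 libraries but did in the fit over their own library set, with limma adjusted p of 0.0233 and 0.0192. GSlinker against GFP, at a limma adjusted p of 0.0485, was lost without any 1 of its 6 libraries (adjusted p up to 0.214).

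The 4 tested transcripts of drpr split into a long form, drpr-RB, and 3 short forms (RA, RC and RD) that lack 2 exons of the long form (chromosome 3L, 1718706 to 1719745 and 1719923 to 1720169). The annotated forms drpr-RE and drpr-RF were at or near 0% in all groups and were not tested. The short forms together, summed after their values were seen, made up 23.96% ± 2.89 of drpr TPM in GSlinker, 20.3% ± 3.2 in Beta5, 19.2% ± 4.0 in the SF1 mutant, 18.9% ± 2.5 in d38 and 13.5% ± 1.8 in RRM2, against 17.0% ± 3.5 in WT and 14.1% ± 2.6 in GFP (SD, n = 3 each). In GSlinker drpr-RD rose to 14.3%, 18.2% and 13.7%, against 6.55%, 6.59% and 6.86% in GFP, and the gene passed (limma adjusted p = 0.00878). The short form drpr-RA was seen mainly in WT, at 4.66%, 5.16% and 5.99% of TPM, against 0.658%, 0% as listed and 2.20% in GFP. None of the 15 mutant libraries reached 1%. This form rests on 176 to 233 estimated counts in WT libraries. It fell in each of the 5 mutants against WT, and drpr passed in each (limma gene-level adjusted p between 5.147e-05 and 0.00106). WT against GFP passed by limma (adjusted p = 0.00162) and not by edgeR's isoform F test (adjusted p = 0.416). The limma call was lost with 0.001 rather than 0.01 added to each side of the share odds (adjusted p = 0.0838). From the 2 groups alone the call was lost too (limma adjusted p = 0.133). Where transcripts with a mean share under 0.05 were left out, which removes drpr-RA, WT against GFP (adjusted p = 0.432), RRM2 against WT (adjusted p = 0.632) and the SF1 mutant against WT (adjusted p = 0.0560) no longer passed.

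Tep4 has an upstream and a downstream first exon, with starts 1186 nt apart, and a pair of 3′ splice sites 6 nt apart. Transcripts from the downstream first exon (Tep4-RA and Tep4-RC), summed after their values were seen, made up 67.6%, 64.7% and 62.8% of Tep4 TPM in GSlinker, against 59.4%, 57.1% and 57.5% in GFP. The GSlinker libraries lay above all others, and means of the other LS2 groups ran from 53.3% in Beta5 to 58.6% in WT. The gene passed in GSlinker against GFP (limma adjusted p = 0.0297), a call lost without GSlinker replicate 1 or 2 or GFP replicate 2 or 3 (adjusted p up to 0.124). That call was also lost by edgeR's isoform F test (adjusted p = 0.0766) and from the 2 groups alone (limma adjusted p = 0.159). GSlinker against WT did not pass (limma adjusted p = 0.0557), but passed with mean shares of at least 0.05 (limma adjusted p = 0.0277). The upstream 3′ splice site was used in 6.35% to 10.8% of Tep4 TPM in all 21 libraries. It was used in 8.61%, 10.1% and 9.24% in RRM2 and 8.47%, 8.08% and 10.8% in Beta5, all above the 6.35%, 7.73% and 7.97% in WT, while the other mutants and GFP overlapped WT. In the limma fit over all 21 libraries Tep4 did not pass in any mutant against WT or in WT against GFP.

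**Figure D4:**
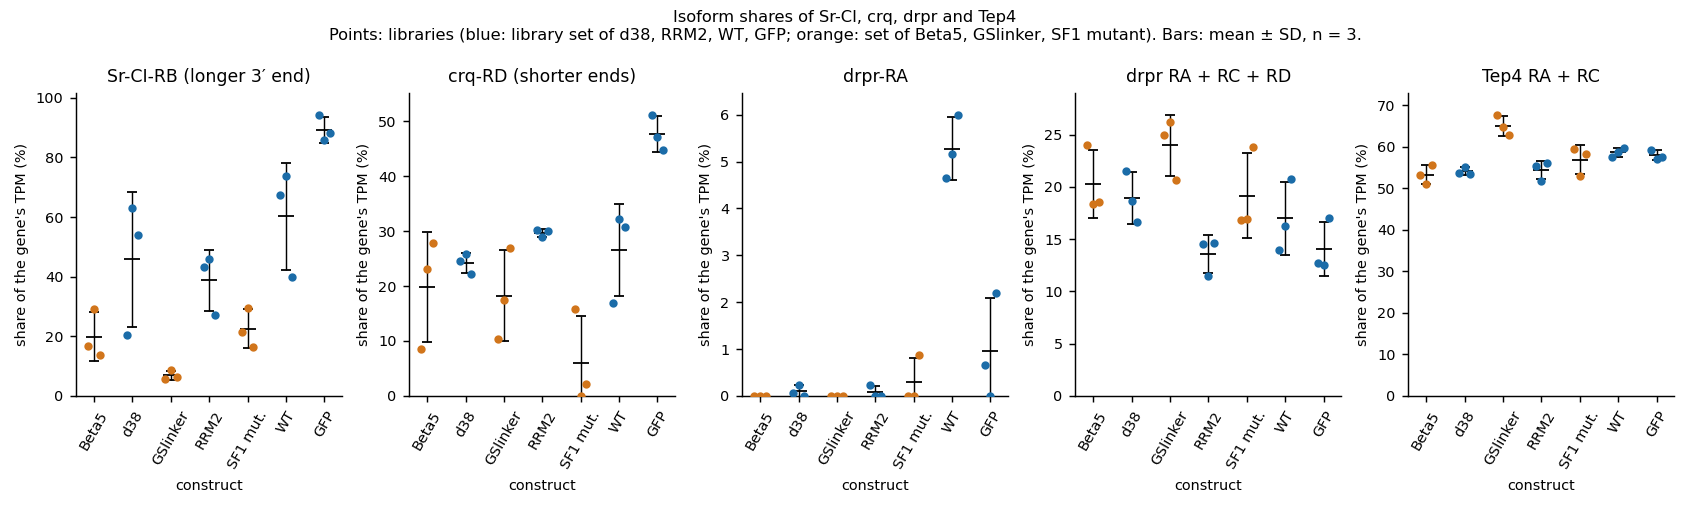
Share of the gene's TPM in percent (y axes, from 0) of the longer Sr-CI form, of crq-RD, of drpr-RA, of the 3 short drpr forms together and of Tep4 transcripts with the downstream first exon, by construct (x axis); points are libraries and bars mean ± SD (n = 3). Sr-CI-RB and crq-RD are highest in GFP, and drpr-RA passes 4% in WT only.

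Dscam1 is annotated with 75 transcripts in the files, of which 65 were tested. They combine alternatives from 4 clusters of mutually exclusive exons, with 12, 48, 33 and 2 members. Far more combinations are possible than are annotated, so the shares below are among annotated forms only. At gene level Dscam1 passed against GFP in Beta5 (limma adjusted p = 0.00361), GSlinker (limma adjusted p = 0.0134), RRM2 (limma adjusted p = 0.0329) and the SF1 mutant (limma adjusted p = 1.14e-04). From the 2 groups alone the calls in Beta5, RRM2 and the SF1 mutant were lost (limma adjusted p = 0.115, 0.168 and 0.0908). The GSlinker call was lost without GSlinker replicate 2 or GFP replicate 1 or 2 (adjusted p up to 0.0879). The RRM2 call was lost without RRM2 replicate 2 or 3 or any 1 GFP replicate (adjusted p up to 0.189) and by edgeR's isoform F test (adjusted p = 0.566). WT (adjusted p = 0.155) and d38 (adjusted p = 0.159) did not pass against GFP in this fit but did in others. WT passed with 0.001 rather than 0.01 added to each side of the share odds (limma adjusted p = 0.0484). With mean shares of at least 0.05 WT passed too (limma adjusted p = 0.0348). By edgeR's isoform F test d38 passed (adjusted p = 0.0468). Against WT Dscam1 passed in Beta5 (limma adjusted p = 0.0228), lost without any 1 Beta5 replicate or WT replicate 3 (adjusted p up to 0.132), and in the SF1 mutant (limma adjusted p = 0.0202), lost without SF1 mutant replicate 2 or WT replicate 3 (adjusted p up to 0.130). GSlinker against WT (limma adjusted p = 0.0439) was lost without any 1 GSlinker replicate or WT replicate 1 or 3 (adjusted p up to 0.160).

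The form with the highest mean share, Dscam1-RBH, made up 7.998%, 7.80% and 8.75% of Dscam1 TPM in the SF1 mutant, 9.19%, 10.9% and 10.9% in Beta5, 12.9%, 11.2% and 9.62% in RRM2, 13.4%, 14.2% and 13.8% in GSlinker and 14.0%, 14.2% and 14.8% in d38. It made up 11.7%, 12.99% and 13.9% in WT and 17.7%, 16.0% and 17.5% in GFP. All 18 LS2 libraries lay below the 3 GFP libraries. The fall was 8.87 points in the SF1 mutant (limma adjusted p = 8.87e-06) and 6.74 points in Beta5 (limma adjusted p = 2.59e-04) against GFP. A minor form named after its values were seen, Dscam1-RAT, stood at 1.12% to 1.30% in d38, 1.57% to 2.89% in the SF1 mutant and 1.70% to 2.92% in Beta5, against 0% as listed to 0.845% in WT and 0% as listed to 0.535% in GFP. Dscam1-RAT also passed as higher than GFP in RRM2, by 1.19 points (limma adjusted p = 0.0156), and in GSlinker, by 0.75 points (limma adjusted p = 0.0347).

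Exon clusters of Dscam1, chosen after their values were seen, were summed as a description. In the transmembrane cluster, the first of the pair of alternatives made up 49.7%, 47.9% and 48.4% of TPM in Beta5, 47.8%, 47.7% and 45.4% in d38 and 44.8%, 45.7% and 46.9% in the SF1 mutant. GSlinker had 43.2%, 41.0% and 41.9% and RRM2 40.8%, 41.2% and 43.9%, against 42.1%, 41.5% and 40.0% in WT and 39.8%, 43.6% and 42.0% in GFP. Beta5, d38 and the SF1 mutant lay above all WT and GFP libraries, and GSlinker and RRM2 overlapped them. The last of the 12 alternatives in the first cluster, on chromosome 2R from 7363024, had shares of 10.6%, 14.2% and 14.3% in Beta5, 13.6%, 11.4% and 11.7% in the SF1 mutant and 15.3%, 18.3% and 18.4% in WT, against 22.7%, 20.6% and 20.4% in GFP. GFP lay above all LS2 libraries for this exon.

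**Figure D5:**
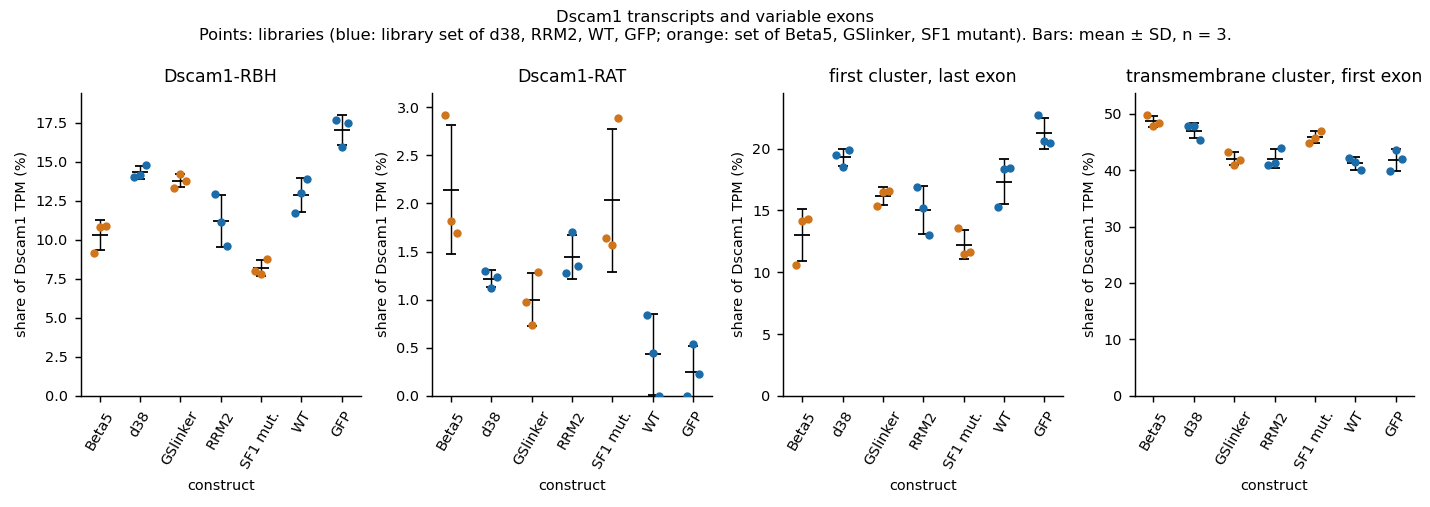
Share of Dscam1 TPM in percent (y axes, from 0) of the transcripts Dscam1-RBH and Dscam1-RAT, of the last exon of the first variable cluster and of the first transmembrane exon, by construct (x axis); points are libraries and bars mean ± SD (n = 3). Dscam1-RBH lies at 16.0% to 17.7% in GFP and at 7.80% to 14.8% in the LS2 libraries.

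Other genes of the pathway were counted in 3 lists. Of 22 further receptors and related proteins, 13 were tested. Against GFP, 2 were higher and 6 lower in WT (8 of 13, where 34.2% of all genes passed), 2 and 4 in Beta5 (57.3% of all genes), 1 and 6 in d38 (30.3%), 2 and 6 in GSlinker (63.7%), 1 and 5 in RRM2 (24.9%) and 2 and 6 in the SF1 mutant (58.5%). The medians of the list were below 0 in all 6 comparisons (−0.27 to −0.13). Against WT, 5 were higher and 2 lower in Beta5 (54% of all genes), 3 and 2 in d38 (16.3%), 2 and 2 in GSlinker (58.1%), 4 and 0 in RRM2 (8.11%) and 3 and 4 in the SF1 mutant (49.2%). The gene emp, of the same CD36 family as crq, was at 0.456, 0.503 and 0.418 TPM in WT, against 0.184, 0.190 and 0.280 TPM in GFP, and rose by 1.09 on the log2 scale (SE 0.31, edgeR adjusted p = 0.00888).

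Of 23 tested genes of engulfment signalling and actin, 1 was higher and 8 were lower in WT against GFP, beside 34.2% of all genes called. The counts against GFP were 6 and 4 in Beta5 (57.3%), 3 and 3 in d38 (30.3%), 10 and 6 in GSlinker (63.7%), 1 and 1 in RRM2 (24.9%) and 5 and 7 in the SF1 mutant (58.5%). Against WT they were 10 and 4 in Beta5 (54%), 3 and 0 in d38 (16.3%), 13 and 3 in GSlinker (58.1%), 2 and 0 in RRM2 (8.11%) and 6 and 5 in the SF1 mutant (49.2%). Of 17 tested genes of phagosome maturation, 0 were higher and 3 lower in WT against GFP, beside 34.2% of all genes. The counts against GFP were 5 and 10 in Beta5 (57.3%), 0 and 5 in d38 (30.3%), 4 and 9 in GSlinker (63.7%), 0 and 2 in RRM2 (24.9%) and 1 and 11 in the SF1 mutant (58.5%), with medians of −0.29 for the SF1 mutant, −0.26 for GSlinker and −0.24 for Beta5. Against WT they were 5 and 6 in Beta5 (54%), 0 and 1 in d38 (16.3%), 4 and 8 in GSlinker (58.1%), 0 and 0 in RRM2 (8.11%) and 2 and 8 in the SF1 mutant (49.2%). Nothing particular to these lists is read from the counts.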

How the data were processed

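Polyadenylated RNA of 21 S2 libraries was read from the authors' deposited transcript tables. Per the file headers, each table gives estimated counts (expected counts, not whole), TPM, length and effective length per transcript. Per the submitters' processing notes, STAR and kallisto were used with dm6 and BDGP6. Versions, and whether counting used strand, are not given in the sources used here. Of 30594 transcripts, 30242 (98.8%) matched the Ensembl release 115 BDGP6 annotation, whose coordinates are printed (1-based). The rest, 0.905% to 2.36% of counts per library, were left out. Deposited counts were summed per gene, rounded, and tested in R 4.3.3 with edgeR 4.0.16's quasi-likelihood test (TMM, filterByExpr with a count minimum of 10, 8750 genes, all 21 libraries in 1 fit, 14 residual degrees of freedom, 15 comparisons). SE is the size of the log2 fold change over the square root of F. Shares of the authors' TPM were tested as log2 odds of a share, each side plus 0.01, with limma 3.58.1, and combined per gene by Simes' method (4499 genes, 14605 transcripts, 11 comparisons). Effective lengths enter TPM and shares. Adjustment followed Benjamini-Hochberg within each comparison, over all genes or transcripts, with a threshold of 0.05. DESeq2 1.42.0, RLE factors, no filter, length offsets, limma on log2(TPM + 1) and log2(TPM + 0.1), smaller fits, a replicate block and leaving out each library were tried. Both tests were tested on simulated data. Totals of 17667236 to 38553848 counts set the precision, and intervals cover counting error only. Genes and lists were chosen with earlier results of these data known: all 10 genes are named whatever their values, and of the pathway lists those called in WT against GFP with a log2 fold change of at least 1 in size (at most 5 per list). Symbols absent from the annotation were not analysed here.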

Additional observations from a re-analysis of the deposited data

How the results depend on the processing

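Of 1962 recomputed log2 fold changes of the 9 tested genes, 1764 kept their side of the threshold (69 of them uncalled values that changed sign), 122 lost and 66 gained a call, and 10 reversed. The 10 were 5 differences on log2(TPM + 1) and log2(TPM + 0.1): drpr in GSlinker (0.018 with both) and the SF1 mutant (0.13 with both) against GFP and in GSlinker against WT (0.20 with both), Tep2 in GSlinker against WT (0.042 with both) and crq in the SF1 mutant against WT (0.014 with both). Genes called for level moved past 1.5 times in these cases, with the count over all 21 libraries in parentheses: GSlinker against WT 3 with RLE factors (5); with limma on either TPM scale RRM2 against GFP 3 (5), the SF1 mutant against WT 7 (4) and d38 against RRM2 1 (3); in the library set alone Beta5 against GSlinker 0 (6); from the 2 groups alone the SF1 mutant against GFP 3 (5), GSlinker against WT 3 (5), the SF1 mutant against WT 2 (4), d38 against RRM2 6 (3), Beta5 against the SF1 mutant 1 (3) and GSlinker against the SF1 mutant 3 (5). For isoforms these were d38 against GFP 3 by edgeR and 2 in its library set (1), Beta5 against GFP 5 and RRM2 against WT 0 with mean shares of at least 0.05 (3 and 1), and from the 2 groups alone 1 each in WT against GFP (3), the SF1 mutant against GFP (4) and the SF1 mutant against WT (5). Fits of 2 groups use 6 libraries by construction, and for the other settings the cause was not tested. With 1 library left out, counts ran from 3 to 5 in Beta5 against GSlinker, d38 against GFP and GSlinker against WT and from 2 to 4 in RRM2 against GFP, and for isoforms from 1 to 2 in d38 against GFP and from 3 to 5 in GSlinker against GFP and the SF1 mutant against WT. Over all genes, level calls in d38 against WT were 2833 on log2(TPM + 1), 2800 on log2(TPM + 0.1) and 2338 in the library set, against 1428. The library set alone gave 575 in Beta5 against GSlinker (1482), 890 in Beta5 (1791) and 1049 in GSlinker (2429) against the SF1 mutant, 1352 in RRM2 against WT (710) and 1967 in d38 against RRM2 (1192). From 2 groups, calls were 4032 (2654) in d38 and 3359 (2183) in RRM2 against GFP, 2165 (4308) in the SF1 mutant against WT, 2539 (1192) in d38 against RRM2, and 742 (1791) in Beta5 and 616 (2429) in GSlinker against the SF1 mutant. Isoform calls in RRM2 against WT were 167 by edgeR, 60 with an offset of 0.001 and 25 from 2 groups (91), and from 2 groups they were 435 in WT (771), 379 in d38 (611), 386 in RRM2 (649) and 866 in the SF1 mutant (1716) against GFP and 188 in d38 (367) and 225 in the SF1 mutant (1130) against WT. With 1 library left out, level calls over all genes ran from 845 to 1609 in Beta5 against GSlinker (lowest without Beta5 replicate 2 or 3 or GSlinker replicate 2), from 874 to 1236 in d38 against WT (d38 replicate 3), from 1447 to 1815 in RRM2 against GFP (GFP replicate 1) and from 443 to 554 in RRM2 against WT (RRM2 replicate 2 or 3). Isoform calls ran from 354 to 547 in d38 and 386 to 566 in RRM2 against GFP, and from 212 to 303 in d38, 42 to 69 in RRM2 and 730 to 1257 in the SF1 mutant against WT (the last without WT replicate 3). NimC1 and Tep3 rest on at most 18 counts per library.

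Replicate numbers did not pair the libraries, with correlations of same-numbered deviations from −0.407 to 0.133. A replicate block left 4 genes called in RRM2 against GFP (eater at an edgeR adjusted p of 0.0565) and 5 in Beta5 against WT (drpr at 0.0507), and for isoforms 5 in GSlinker and 2 in RRM2 against GFP and 3 in GSlinker against WT. It moved no other count of these genes.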
